A study of Homo sapiens with 18 samples.

Results

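The genes described here are 49 genes of homologous recombination and the Fanconi anemia pathway, chosen by symbol from the 27781 rows of the count table. All 49 were present, and all 49 had enough counts to be tested. RNA came from K562, an established human line from chronic myeloid leukemia with a BCR-ABL1 fusion gene. Per the treatment protocol, the knockdown group received antisense gapmers (oligonucleotides designed to direct RNase H to an RNA), although the sample descriptions say siRNA. They were aimed at the junction that closes circPCMTD1 into a circle. The scrambled group received control gapmers of scrambled sequence, and both were collected at 48 hours. The design text gives each group 3 biological replicates with 3 technical libraries each. The libraries carry a pair of numbers, and no label says which number is the biological replicate. The first was taken as that and its libraries were summed, giving 3 against 3 samples. If the second number is the biological replicate, n = 3 and the p-values here describe technical spread. Summing by it gave 6 raised and 9 lowered genes in place of the 3 and 3 below, beside 16.5% and 15.2% of all genes. The labels name no other difference between the groups. Gene counts do not separate the circular RNA from its linear host, so the knockdown itself was not checked here. In bulk RNA, fewer cells making a transcript and less transcript per cell cannot be told apart.

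Homologous recombination repairs broken chromosomes by copying an intact sister sequence. Ends are first resected to single strands, RPA coats them, and BRCA1, PALB2 and BRCA2 then help the coated strand to pair with its template. The Fanconi anemia pathway handles crosslinks between the strands of DNA: a nuclear core complex attaches ubiquitin to FANCD2 and FANCI, and nucleases and recombination proteins then act at the stalled fork. Many of these genes are transcribed most in S and G2 phase, when a sister copy exists. Leukemic cells with BCR-ABL1 are known for high levels of DNA damage, and the title of the series concerns the damage response.

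The transcripts of this machinery changed little. Of the 49 genes, 3 rose and 3 fell after knockdown (edgeR's quasi-likelihood test, Benjamini-Hochberg adjusted p under 0.05 over the 15678 genes tested). DESeq2 called 2 and 3, beside 8.9% and 7.18% of all genes. Across all those genes 11.1% rose and 7.49% fell, so neither count stands above the background. At an unadjusted p under 0.05 there were 11 members (22.4%), beside 31.2% of all genes. BABAM2, NSMCE1 and SWI5 were the genes that rose, and UIMC1, FANCA and MUS81 those that fell. Log2 fold changes over the 49 ran from -0.17 to 0.21 with a median of -0.0037, beside a median of 0.0022 over all genes tested. The middle value of the absolute log2 fold change was 0.0456 for the 49 genes and 0.062 for the 10482 tested genes at the same levels, between 2.97 and 239 CPM (counts scaled to library size). Of those 10482 genes, 13.4% were called raised and 8.88% lowered in edgeR. All 49 intervals (95%) lay inside a 1.25-fold change in either direction and 41 lay inside 1.15-fold, while 65.9% and 50.8% of all tested genes did. All tested genes include those at other levels, and their median SE was 0.0479, beside 0.0387 for the 49 genes. The shares of intervals inside these folds were not taken among genes at the same levels.

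**Figure D1:**
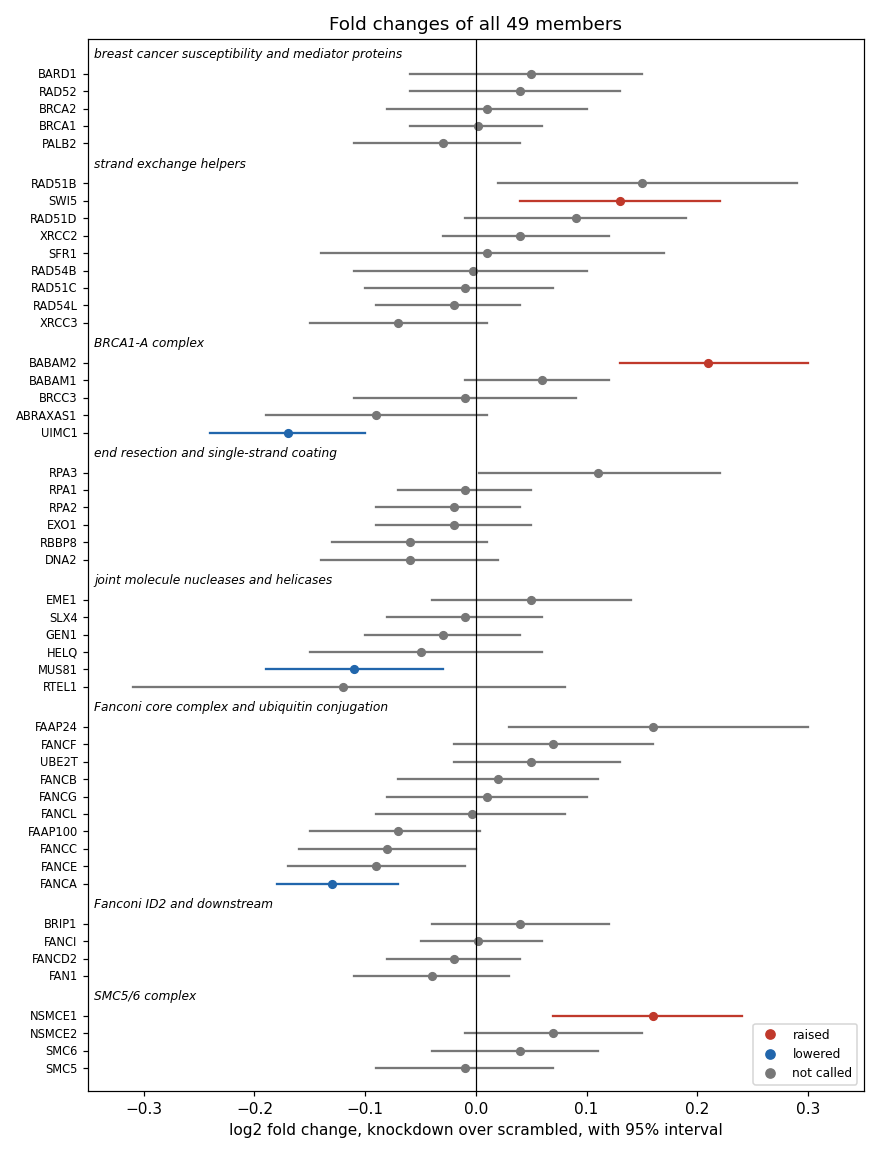
Log2 fold change of each of the 49 genes (x axis, knockdown over scrambled, point with 95% interval from edgeR, n = 3 summed replicates per group), grouped by role on the y axis and coloured by call. The 6 called genes lie in 5 different role groups, and BABAM2 and UIMC1, of the same complex, lie at opposite ends, at 0.21 and -0.17.

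The range of the 3 knockdown samples lay wholly above that of the scrambled samples for 10 of the 49 genes and wholly below it for 5. Over all tested genes these shares were 18.1% and 16.5%. Library sums ran from 63851576 to 76087774 counts, and the median SE of a log2 fold change was 0.0387 for these genes. Every one of 10 erythroid markers reached 1 CPM, and they summed to between 11053 and 11166 CPM in scrambled and 11577 and 12186 CPM in knockdown samples. Of 10 lymphoid markers only CD3D did, although the labels give the cell type as lymphoblast. CD3D was at 4.67 and 6.43 CPM in scrambled and knockdown cells, and the 10 lymphoid markers summed to between 4.95 and 5.59 CPM in scrambled and 7.56 and 7.68 CPM in knockdown samples, with MS4A1 and DNTT at 0. Their part in the results was not tested. Each library's deviation from the mean of its own group was set against transcript GC content across genes. Knockdown libraries 3_2 and 3_3 stood apart from the other knockdown libraries, with rank correlations of -0.45 and -0.52. The other 7, whose group mean includes those libraries, ran from -0.0479 to 0.353. Scrambled libraries ran from -0.353 (3_1) to 0.235 (1_3). Counts are given with and without knockdown libraries 3_2 and 3_3, and no scrambled library was left out in that fit.

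Levels differed far more between genes than between groups. Per kb of annotated exon, the single-strand binding subunit RPA2 was highest, at 51.1 ± 1.16 CPM per kb in scrambled cells (SD, n = 3). The resection nuclease gene EXO1 followed at 38.6 ± 0.421, the strand exchange motor gene RAD54L at 31.7 ± 0.267 and FANCI at 30.7 ± 0.0388. At the other end were SFR1 at 2.57, FANCC at 2.46, RAD51D at 1.38, RAD51B at 1.03 and RTEL1 at 0.48 CPM per kb. These last values are limited by the annotation: 70.2% of the exon length of RTEL1 also belongs to the read-through gene RTEL1-TNFRSF6B on the same strand, and exon length counts every annotated isoform. BRCA1 (18.1 CPM per kb) stood above its partners BARD1 (4.83), PALB2 (7.79) and BRCA2 (5.52) on this scale.

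**Figure D2:**
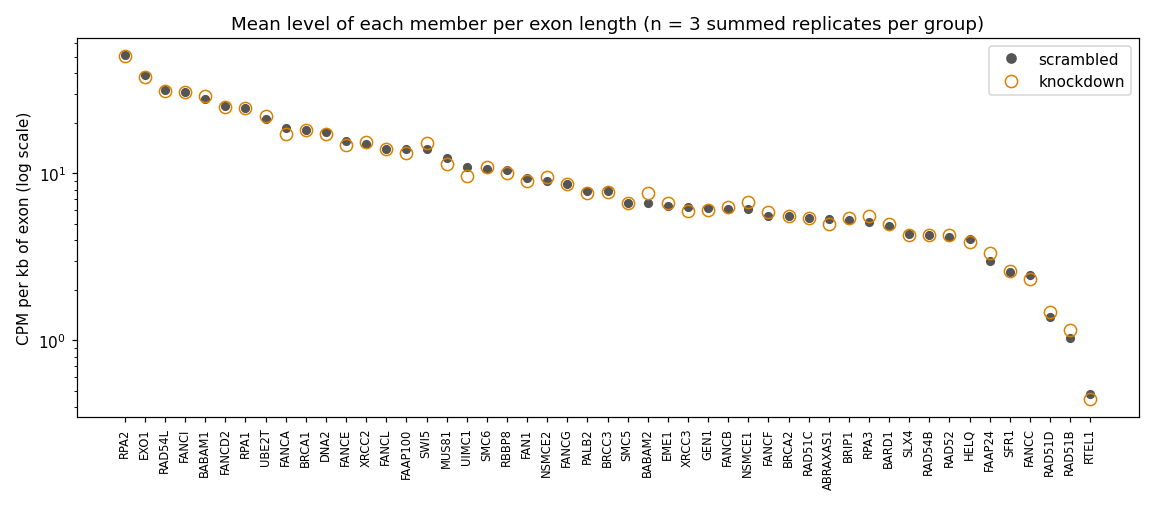
Mean level of each of the 49 genes in CPM per kb of exon (y axis, log scale) in scrambled (filled) and knockdown (open) cells, n = 3 summed replicates each, ordered by the scrambled level. The 2 symbols overlap for nearly every gene, while levels run from 0.48 for RTEL1 to 51.1 for RPA2.

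The BRCA1-A complex held both the largest rise and the largest fall. This assembly brings BRCA1 to ubiquitin chains beside a break and limits resection. UIMC1 encodes RAP80, its ubiquitin-reading subunit, and lies on chromosome 5 from 176905005 to 177022633 on the minus strand of GRCh38. It was measured at 51.6, 50.9 and 52.0 CPM in scrambled samples and at 47.3, 44.8 and 45.1 CPM in knockdown samples. All 3 knockdown samples lay below all scrambled samples. The log2 fold change was -0.17 (SE 0.0345, adjusted p = 0.00118 in edgeR), which is 11.2% lower. BABAM2, also called BRE, encodes a scaffold subunit shared with the cytoplasmic BRISC complex and lies on chromosome 2 from 27889941 to 28338901 on the plus strand. It was measured at 22.2, 22.8 and 22.3 CPM in scrambled and at 26.1, 26.2 and 25.7 CPM in knockdown samples. The groups did not overlap here either, and BABAM2 was 16.1% higher, with a log2 fold change of 0.21 (SE 0.0397, adjusted p = 0.000518 in edgeR). Both calls held in each of the 18 other settings tried, including those without knockdown libraries 3_2 and 3_3, where the log2 fold changes were -0.17 and 0.21.

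The other subunits of the complex were not called. BABAM1, which encodes the subunit MERIT40, was at 73.5, 74.0 and 71.3 CPM in scrambled and at 78.2, 74.7 and 74.6 CPM in knockdown samples, a log2 fold change of 0.06 (adjusted p = 0.257 in edgeR). ABRAXAS1, the central scaffold, was at 38.8, 41.7 and 43.2 CPM in scrambled and at 36.5, 37.0 and 42.7 CPM in knockdown samples, with a log2 fold change of -0.09 (adjusted p = 0.231). Knockdown replicate 3 was the high one among the knockdown samples. Without knockdown libraries 3_2 and 3_3 ABRAXAS1 passed as lowered at -0.15 (adjusted p = 9.08e-05 in edgeR) and BABAM1 passed as raised. BRCC3, the deubiquitinase subunit, was at -0.01 on the log2 scale. Exons shared with other genes make up 32.6% of BABAM1, 25.2% of ABRAXAS1 and 9.55% of BABAM2 on one strand, and none of UIMC1. MRPL33, which overlaps BABAM2 on the same strand, had a log2 fold change of -0.02.

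**Figure D3:**
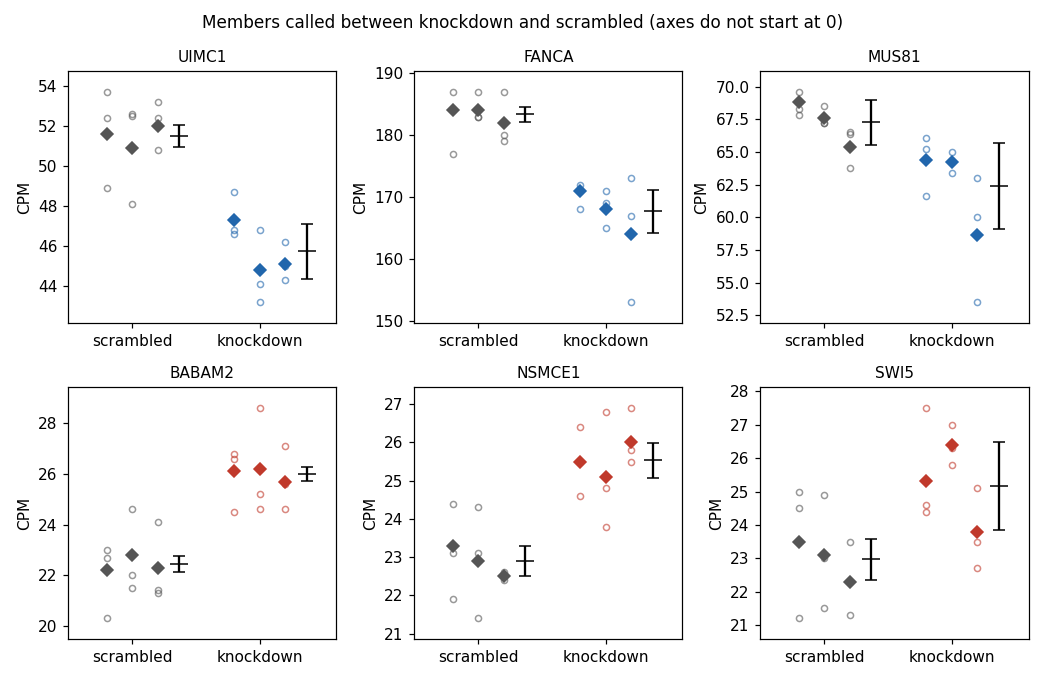
CPM (y axis, not starting at 0) of the 6 called genes in scrambled and knockdown cells, with diamonds for the 3 summed replicates, open circles for their technical libraries, and bars for mean ± SD over the 3 sums. In each panel the 3 knockdown diamonds lie on one side of the scrambled ones, and single libraries overlap between groups for SWI5, MUS81, BABAM2, NSMCE1 and UIMC1 but not for FANCA.

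To show where these genes start, RefSeq's windows on GRCh38.p14 (250 bases before to 50 after the RefSeq start) are printed for UIMC1 and BABAM2, which moved in opposite directions within the complex, and for FANCA and NSMCE1, each called alone in its complex. Windows were found for 43 of the 49 genes. Capitals mark matches, on either strand, to an E2F motif (TTTCCCGC, TTTGGCGC, TTTCGCGC or TTTGCCGC), the CHR element (TTTGAA), the CCAAT box (CCAAT) or an ETS motif (CCGGAAG), none of which overlap in these windows. They are chr5:177006745-177007044 (minus strand), chr2:27890479-27890778 (plus), chr16:89816598-89816897 (minus) and chr16:27268723-27269022 (minus), each written 5′ to 3′ along its gene. The UIMC1 window follows RefSeq's start and lies inside the longer gene that GENCODE annotates.
UIMC1: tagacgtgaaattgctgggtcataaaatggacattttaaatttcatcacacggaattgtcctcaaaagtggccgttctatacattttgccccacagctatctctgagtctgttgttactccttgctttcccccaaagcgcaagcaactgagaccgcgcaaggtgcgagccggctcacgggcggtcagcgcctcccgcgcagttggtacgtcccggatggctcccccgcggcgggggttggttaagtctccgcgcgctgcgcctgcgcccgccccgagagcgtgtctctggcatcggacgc
BABAM2: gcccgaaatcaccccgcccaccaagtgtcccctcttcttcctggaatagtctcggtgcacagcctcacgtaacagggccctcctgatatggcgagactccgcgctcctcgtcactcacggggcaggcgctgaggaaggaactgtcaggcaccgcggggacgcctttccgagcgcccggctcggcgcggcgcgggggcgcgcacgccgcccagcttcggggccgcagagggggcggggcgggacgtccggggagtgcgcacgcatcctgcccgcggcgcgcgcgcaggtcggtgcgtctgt
FANCA: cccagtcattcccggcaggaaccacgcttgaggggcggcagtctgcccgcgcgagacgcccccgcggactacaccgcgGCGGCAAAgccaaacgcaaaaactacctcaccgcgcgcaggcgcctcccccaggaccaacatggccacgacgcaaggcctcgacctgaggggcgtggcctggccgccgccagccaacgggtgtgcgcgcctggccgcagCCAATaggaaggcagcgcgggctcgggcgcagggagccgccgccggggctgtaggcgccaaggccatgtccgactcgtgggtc
NSMCE1: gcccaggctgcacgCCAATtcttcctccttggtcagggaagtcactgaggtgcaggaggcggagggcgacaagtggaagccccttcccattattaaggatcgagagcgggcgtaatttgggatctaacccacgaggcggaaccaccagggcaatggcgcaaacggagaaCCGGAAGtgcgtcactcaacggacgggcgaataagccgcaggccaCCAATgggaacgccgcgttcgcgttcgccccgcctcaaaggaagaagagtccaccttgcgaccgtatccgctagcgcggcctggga

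UIMC1 and BABAM2 held none of these letters, FANCA 1 E2F motif and 1 CCAAT box, and NSMCE1 2 CCAAT boxes and 1 ETS motif. An E2F motif was found in 7 of 43 windows (16.3%), namely those of EXO1, FANCA, FANCC, FANCD2, GEN1, SMC6 and XRCC2, and in 5.33% of 11523 windows of tested genes. An ETS motif was in 30.2% against 18.6%, the CHR element in 14% against 10.2% and the CCAAT box in 32.6% against 36.9%. The windows of GEN1 and SMC6 overlap on opposite strands. Their E2F and ETS matches are the same sites, counted once for each gene. Another protein-coding or long noncoding gene starts within 1000 bases in the opposite direction at 17 of the 49 genes (34.7%), and at 15.1% of 13030 tested protein-coding genes. The neighbour of PALB2 is DCTN5, 82 bases away, that of BRCA2 is ZAR1L at 130 and that of UIMC1, from GENCODE's start, is ZNF346 at 63. These matches and neighbours are descriptions of sequence and position.

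In the Fanconi core complex and its conjugating enzyme 1 of 10 genes was called. FANCA, the gene most often mutated in the disease and the scaffold of one module of the core complex, lies on chromosome 16 from 89737549 to 89816657 on the minus strand. It was at 184, 184 and 182 CPM in scrambled samples and at 171, 168 and 164 CPM in knockdown samples. No technical library of the knockdown group, up to 173 CPM, reached the lowest scrambled library at 177 CPM. The log2 fold change was -0.13 (SE 0.0274, adjusted p = 0.00228 in edgeR), 8.4% lower, and FANCA was called in all 18 other settings. Exons of ZNF276 on the opposite strand cover 23.6% of FANCA's exon length, and ZNF276 itself was at -0.05 (adjusted p = 0.273).

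FANCE, the subunit that binds FANCD2, was at 42.2, 42.4 and 41.7 CPM in scrambled and 41.0, 39.8 and 37.9 CPM in knockdown samples, which do not overlap (log2 fold change -0.09, SE 0.0368, adjusted p = 0.0961 in edgeR). It passed as lowered with GC correction (adjusted p = 0.00404) and without knockdown libraries 3_2 and 3_3 (adjusted p = 0.0344). FANCC, partner of FANCE, was at 30.2, 32.5 and 31.9 CPM in scrambled and 30.2, 29.8 and 29.3 CPM in knockdown samples. These touch at 30.2 CPM, with a log2 fold change of -0.08 (SE 0.0395, adjusted p = 0.159). FAAP100, of the catalytic module, was at -0.07 on the log2 scale (adjusted p = 0.187). It passed as lowered with GC correction, at -0.10 (adjusted p = 0.000369), and was at -0.02 without knockdown libraries 3_2 and 3_3. FANCL, the ubiquitin ligase, was at -0.0037, FANCB, which holds the ligase module together, at 0.02 and FANCG, partner of FANCA, at 0.01. UBE2T, the conjugating enzyme that works with FANCL, was at 0.05 and the adaptor gene FANCF at 0.07. FAAP24, which helps to anchor the core complex on DNA, was at 7.4, 6.59 and 7.21 CPM in scrambled and 8.21, 7.95 and 7.57 CPM in knockdown samples. The groups did not overlap, and the log2 fold change was 0.16 (SE 0.0653, adjusted p = 0.0882 in edgeR). FAAP24 passed as raised with GC correction (adjusted p = 0.0328). Where FANCA lost 8.4%, then, 4 of the other 9 genes had negative and 5 positive log2 fold changes.

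The substrates and downstream genes of the pathway gave no call in edgeR or DESeq2, and 0 of these 4 had an unadjusted p below 0.05. FANCD2 was at 212 CPM in each scrambled sample and at 203, 204 and 220 CPM in knockdown samples, with a log2 fold change of -0.02 and an interval from -0.08 to 0.04. FANCI, its partner, was at 238, 239 and 239 CPM and then at 236, 233 and 248 CPM, with a log2 fold change of 0.0023. Knockdown replicate 3 was the highest of the 6 samples for both genes. FANCD2 passed as lowered without knockdown libraries 3_2 and 3_3, at -0.06 (adjusted p = 0.00404 in edgeR). BRIP1, the helicase also called FANCJ, was at 0.04 and the nuclease gene FAN1 at -0.04.

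BRCA1, BARD1, PALB2, BRCA2 and RAD52 also gave no call in edgeR or DESeq2 and 0 unadjusted p below 0.05. BRCA1, the ubiquitin ligase and recombination factor, was at 165, 165 and 169 CPM in scrambled and at 162, 164 and 174 CPM in knockdown samples. The groups overlapped, and the log2 fold change of 0.0017 had an interval from -0.06 to 0.06. BRCA2, a mediator of strand exchange, was at 64.7, 68.9 and 69.6 CPM and then at 64.1, 66.5 and 73.8 CPM, with an interval from -0.08 to 0.10. BARD1, the obligate partner of BRCA1, was at 0.05, PALB2, which joins BRCA1 to BRCA2, at -0.03, and the annealing factor RAD52 at 0.04. None of these 5 genes passed in any of the 18 other settings.

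SWI5 was the gene called among those that help strand exchange. It encodes a small protein that acts with SFR1 in strand exchange, and lies on chromosome 9 from 128275379 to 128288990 on the plus strand. It was at 23.5, 23.1 and 22.3 CPM in scrambled and at 25.3, 26.4 and 23.8 CPM in knockdown samples. The lowest knockdown sample lay just above the highest scrambled one, and the log2 fold change was 0.13 (SE 0.0445, adjusted p = 0.043 in edgeR). Without knockdown libraries 3_2 and 3_3 it was 0.16 (adjusted p = 0.000473). The call was lost in DESeq2 (adjusted p = 0.0717) and without scrambled replicate 1, 2 or 3 (adjusted p = 0.0792, 0.11 and 0.179) or knockdown replicate 1 or 2 (0.0934 and 0.224), and with the first technical library only (0.102).

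SFR1, at 4.66 and 4.71 CPM in the groups, had a log2 fold change of 0.01 with an interval from -0.14 to 0.17, which includes the value of SWI5. RAD51B, RAD51C, RAD51D, XRCC2 and XRCC3, which form assemblies that assist strand exchange, were not called. RAD51B was at 7.77, 7.82 and 7.54 CPM in scrambled and at 8.38, 8.09 and 9.29 CPM in knockdown samples, and RAD51D at 16.0, 15.6 and 15.2 and then 16.6, 16.5 and 16.8 CPM. Neither pair of groups overlapped, with log2 fold changes of 0.15 (SE 0.0638, adjusted p = 0.0971) and 0.09 (adjusted p = 0.198) in edgeR. XRCC2 was at 0.04, RAD51C at -0.01 and XRCC3 at -0.07. With GC correction RAD51B passed as raised and XRCC3 as lowered, the latter at -0.10 (adjusted p = 0.00441 in edgeR). For XRCC3, exons of KLC1 on the opposite strand cover 76.7% of the length, and KLC1 was at -0.08. The translocase genes RAD54L and RAD54B were at -0.02 and -0.0028, and 59.1% of RAD54B's exon length also belongs to FSBP.

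Genes of end resection and strand coating gave 0 calls in edgeR and in DESeq2, and 1 unadjusted p below 0.05. That was RPA3, the smallest RPA subunit, at 16.1, 16.5 and 17.0 CPM in scrambled and at 17.3, 16.9 and 19.5 CPM in knockdown samples (log2 fold change 0.11, SE 0.0526, adjusted p = 0.149 in edgeR). Genes on the opposite strand, UMAD1 among them, share 3.65% of its exon length, and UMAD1 was raised at 0.22 (adjusted p = 0.00677). RPA3 passed as raised with GC correction (0.12, adjusted p = 0.0424) and when libraries were summed by the second number (adjusted p = 0.0402). It was at 0.06 without knockdown libraries 3_2 and 3_3, at 0.05 without knockdown replicate 3 and at -0.0027 with the first technical library only. The larger subunits RPA1 and RPA2 were at -0.01 and -0.02, with intervals from -0.07 to 0.05 and -0.09 to 0.04. RBBP8, which encodes CtIP, the starter of resection, was at -0.06, and the long-range nuclease genes DNA2 and EXO1 at -0.06 and -0.02. DNA2 was at 86.1, 88.8 and 85.8 CPM in scrambled and 79.3, 81.1 and 89.2 CPM in knockdown samples, so that replicate 3 lay above every scrambled sample and the other 2 below. Without knockdown libraries 3_2 and 3_3, RBBP8, DNA2 and EXO1 all passed as lowered, with DNA2 at -0.10 (adjusted p = 0.000174 in edgeR). In that fit 15.5% of all tested genes were lowered. The GC contents of RBBP8, DNA2 and EXO1 were 40%, 37.6% and 42.4%, and a part for GC content in these values was not tested.

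Among nucleases and helicases that process joint molecules, MUS81 was lowered. MUS81 is the catalytic subunit of an endonuclease that cuts branched DNA, on chromosome 11 from 65857126 to 65867653 on the plus strand. It was at 68.8, 67.6 and 65.4 CPM in scrambled and 64.4, 64.2 and 58.6 CPM in knockdown samples. The groups lay close but did not overlap, with replicate 3 lowest in both (log2 fold change -0.11, SE 0.0372, adjusted p = 0.046 in edgeR). Without knockdown replicate 3 the log2 fold change was -0.07 (adjusted p = 0.0511), and without knockdown libraries 3_2 and 3_3 it was -0.07 (adjusted p = 0.0195). The call was also lost without scrambled replicate 1, 2 or 3 (adjusted p = 0.202, 0.153 and 0.0574), with upper quartile scaling (0.0626), with library totals only (0.0749) and with the first technical library only (0.131). Opposite-strand exons of CFL1 and EFEMP2 cover 14.1% of the exon length of MUS81. EME1, the partner of MUS81, was at 21.7, 21.0 and 20.5 CPM and then 21.7, 21.4 and 22.2 CPM, a log2 fold change of 0.05. SLX4, the scaffold that binds MUS81, was at -0.01, and GEN1, the other resolvase gene, at -0.03. The helicase genes HELQ and RTEL1 were at -0.05 and -0.12, and RTEL1, at 3.09 and 2.85 CPM, had an interval from -0.31 to 0.08.

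NSMCE1 was called in the SMC5-SMC6 complex, a ring related to cohesin that restrains and untangles recombination intermediates. NSMCE1 encodes a RING subunit of that complex and lies on chromosome 16 from 27224991 to 27268794 on the minus strand. It was at 23.3, 22.9 and 22.5 CPM in scrambled and 25.5, 25.1 and 26.0 CPM in knockdown samples. These do not overlap, and the log2 fold change was 0.16 (SE 0.0402, adjusted p = 0.00817 in edgeR), 11.5% higher. It was called in 16 of 18 other settings. The exceptions were the first technical library only and the fit without scrambled replicate 3, at adjusted p = 0.0524 and 0.0512. NSMCE2, the SUMO ligase subunit, was at 27.3, 27.1 and 26.9 CPM in scrambled and 27.6, 29.5 and 28.1 CPM in knockdown samples, a log2 fold change of 0.07 (adjusted p = 0.26). The ring proteins SMC5 and SMC6 were at -0.01 and 0.04.

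For each of the 6 called genes exact permutation of the 6 samples' log2 CPM (two-sided) gave p = 0.1, the smallest that this design allows. Groups that do not overlap always give this value, so it adds nothing to the calls. Among all tested genes, 18.1% lay wholly above and 16.5% wholly below. The number of calls moved with knockdown replicate 3. Without its libraries 3_2 and 3_3, 5 of the 49 genes were raised and 10 lowered, beside 16.5% raised and 15.5% lowered of all genes tested in that fit. With a correction for transcript GC content, 6 were raised and 9 lowered, beside 14.8% and 16.7% of all genes. The 3 raised and the 3 lowered genes were among those called in both of these fits.

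**Figure D4:**
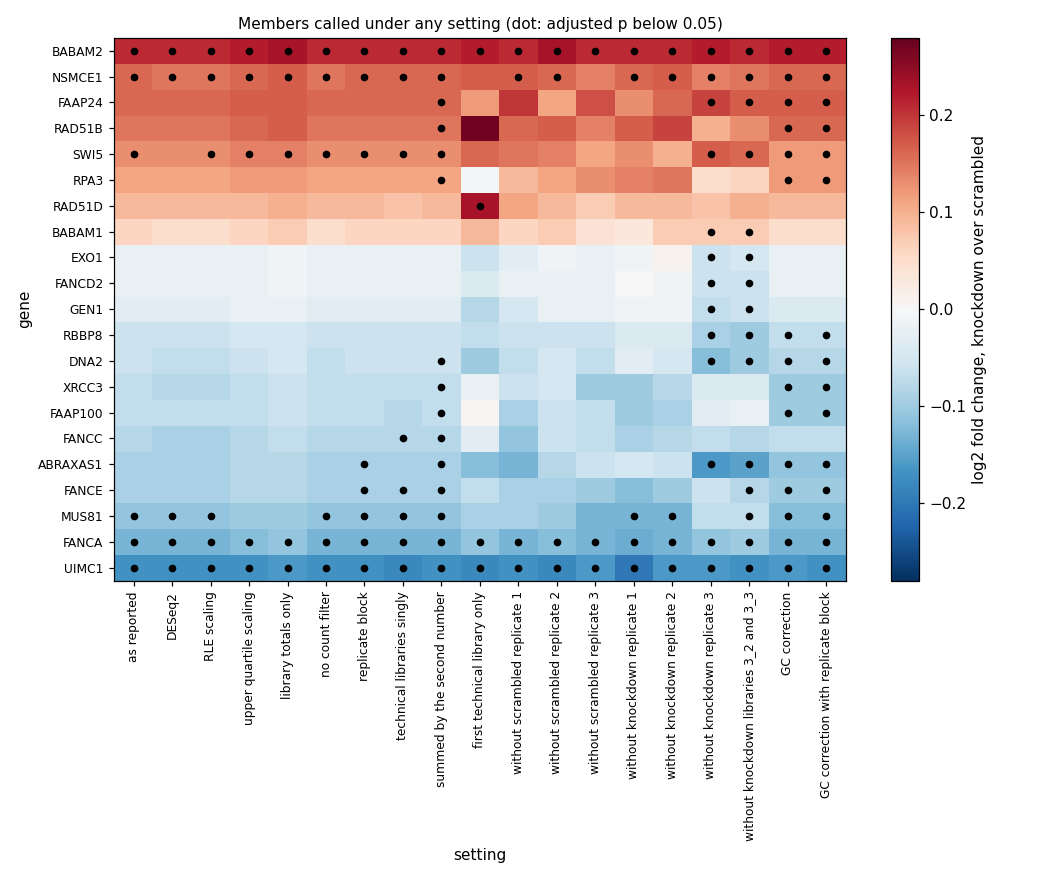
Log2 fold change (colour, knockdown over scrambled) of the 21 genes called in at least 1 setting (rows) under each setting (columns), with a dot where adjusted p was below 0.05. The share of all tested genes called in at least 1 setting was not taken. GC correction alone called 14.8% raised and 16.7% lowered of all genes. UIMC1, FANCA and BABAM2 carry a dot in every column, and no gene was called raised in one setting and lowered in another.

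Across the 49 genes the deviation of knockdown replicate 3 followed GC content. Of 25 genes with a GC content under 45% in their longest transcript, 24 were higher in replicate 3 than in the mean of knockdown replicates 1 and 2, with a median log2 difference of 0.10. Of the 24 genes with a higher GC content 8 were higher, with a median of -0.03. The largest differences were in BARD1 (0.23), ABRAXAS1 (0.22) and RAD54B (0.20) on one side and FANCG (-0.17) and FAAP100 (-0.14) on the other. The rank correlation was -0.819 over the 49 genes and -0.524 over all tested genes, as descriptions across genes that share the same libraries. The 49 genes had a median GC content of 44%, below the 48.6% of all tested genes. Measured against scrambled samples, knockdown replicates 1 and 2 alone lay lower for 20 of the 25 genes under 45%, with a median log2 difference of -0.04, and for 13 of the other 24. Whether GC content accounts for any member's value was not tested beyond these fits.

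**Figure D5:**
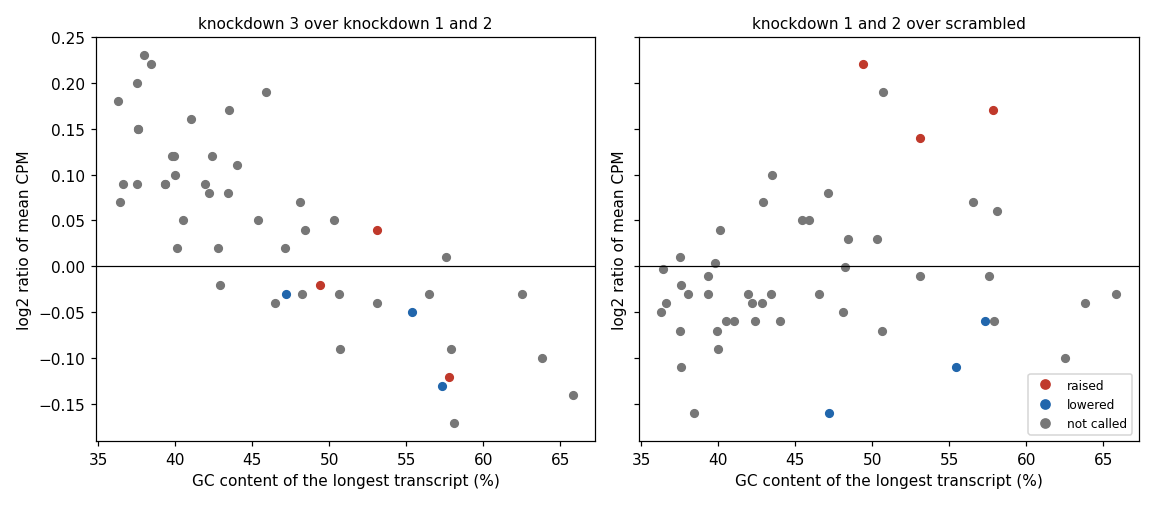
Log2 ratio of mean CPM (y axes) against GC content of the longest transcript in percent (x axes) for the 49 genes, coloured by call, with knockdown replicate 3 over knockdown replicates 1 and 2 at left and the latter over the 3 scrambled samples at right. At left nearly all genes under 45% lie above 0, and at right 20 of those 25 lie below 0.

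Other genes of the same pathways and markers of S and G2 phase were examined for context. Of 54 further recombination and crosslink repair genes 51 were tested, with a median log2 fold change of 0.01. Among them 2 rose (3.92%) and 3 fell (5.88%), beside 11.1% and 7.49% of all genes tested. TOPBP1, a checkpoint adaptor gene, rose from 112 ± 0.202 to 132 ± 5.08 CPM (SD, n = 3), and RNF8, whose ubiquitin ligase acts upstream of UIMC1, from 30.9 ± 0.847 to 33.5 ± 1.41 CPM. RNF168, the ligase that follows RNF8, fell from 106 ± 1.24 to 95.6 ± 0.578 CPM, TOP3A, the topoisomerase that acts with BLM, from 78.7 ± 2.05 to 71.5 ± 1.09 CPM, and REV1, of translesion synthesis, from 63.4 ± 0.941 to 58.6 ± 1.89 CPM. Adjusted p-values of these 5 genes in edgeR lay between 1.06e-05 and 0.0475. RNF8 was the weakest, and DESeq2 called 1 of the raised genes and all 3 lowered ones. Of 20 markers of S and G2 phase 0 were called by edgeR or DESeq2, and 3 had an unadjusted p below 0.05. Their log2 fold changes ran from -0.06 to 0.11, with MKI67, a proliferation marker, at 470 CPM in both groups.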

How the data were processed

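RNA-seq of 18 K562 libraries was used. Libraries were directional and depleted of rRNA, per the labels' protocols. The tools named in the submitters' processing notes are STAR, featureCounts and Trim Galore, with the build GRCh38. For their versions, the annotation and the counting strand, each was not given in the sources used here. Raw counts per gene symbol are what the authors deposited. Reads of overlapping genes may be shared where counting ignored strand. Here libraries were summed by the first number of the title, and edgeR 4.0.16 (R 4.3.3) was run on genes kept by filterByExpr, with TMM scaling and a robust quasi-likelihood test, and p-values were adjusted over 15678 genes by Benjamini-Hochberg. CPM use TMM-scaled totals, except for the summed cell type markers, their cut at 1 CPM and genes not tested, which use plain totals. Errors on CPM are SDs over 3 sums, and p-values measure the spread between these samples, which may be largely technical. Library totals ran from 19118533 to 29432699 counts. Exon lengths, overlaps and the GC content of longest transcripts (96.4% of tested genes) came from GENCODE 29, and promoters from RefSeq, whose starts can differ from GENCODE's. GC correction took each sample's deviation from the gene's mean log2 CPM over both groups (prior count 2). A lowess trend of that deviation on GC content (span 0.3) entered the edgeR fit as an offset. It also removes differences between the groups that follow GC content. The edgeR fit was tested on simulated counts that held no GC trend and no separate technical libraries. That test cannot address the GC trend of knockdown libraries 3_2 and 3_3. Alternatives included DESeq2 1.42.0. The members, gene lists and alternatives were chosen with earlier results of these data known. Genes given in every sample were those called or with an unadjusted p below 0.05, and some others were added after their values were seen. Other pathway genes are named where called. Python 3.11.15, pandas 2.3.3 and matplotlib 3.10.9 were used.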

Additional observations from a re-analysis of the deposited data

Results flagged for a closer look

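Among the 9 libraries of each group, the highest or lowest library was tested for its gap to the next, in 98 groups of values. Chance would mark about 1 in 20 if the values were independent. They are not, as technical libraries share samples and each library serves every gene, so that rate is nominal. In 9 cases the gap exceeded Dixon's critical value. In knockdown 3_3, MUS81 was low at 53.5 CPM (others 60 to 66.1), FANCA low at 153 CPM (others 165 to 173) and GEN1 high at 81.6 CPM (others 66.7 to 73.2). In knockdown 3_2, RBBP8 was high at 60.5 CPM (others 48.1 to 53.4). Without these libraries the log2 fold change of FANCA was -0.10 and that of MUS81 -0.07, both still called in edgeR. In knockdown 2_1, UBE2T was low at 32.4 CPM (others 35.9 to 38) and FANCC high at 32.5 CPM (others 28.4 to 30.4). HELQ was low in knockdown 1_2 at 12.5 CPM (others 14 to 15.2), and BABAM1 high in knockdown 1_3 at 83.1 CPM (others 71.4 to 77.2). FAN1 was low in scrambled 2_1 at 52.5 CPM (others 56.7 to 59.7).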

How the results depend on the processing

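UIMC1, FANCA and BABAM2 kept their direction and call in all 18 alternatives, and no called gene changed sign in any. Of the 43 uncalled genes 22 changed sign in at least 1 alternative, and 28 were called in none. RPA3 reversed to -0.0027 with the first technical library only.

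The 3 raised and 3 lowered genes became 6 and 9 when libraries were summed by the second number (16.5% and 15.2% of all genes), 6 and 9 with GC correction, 6 and 9 with GC correction and the replicate block, and 5 and 10 without knockdown libraries 3_2 and 3_3. With the replicate block 5 were lowered (11.3% of all genes), as with technical libraries entered singly (14.7% of all genes). Leaving out 1 replicate gave 1 to 5 raised and 2 to 8 lowered, beside 7.09% to 15.6% and 3.92% to 14.3% of all genes. The highest of these, 5 and 8, came without knockdown replicate 3, where 15.6% and 14.3% of all genes were called.

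The 2 raised and 3 lowered other pathway genes became 8 and 9 when summed by the second number (16.5% and 15.2% of all genes). With GC correction, with or without the block, they became 4 and 9 (14.8% and 16.7% of all genes without it). They were 6 and 7 without knockdown libraries 3_2 and 3_3 (16.5% and 15.5%) and 6 and 6 with the replicate block (14.1% and 11.3%). Counts were 4 and 5 with libraries entered singly (15.5% and 14.7%) or the first library only (8.47% and 6.04%). Raised genes were 1 in DESeq2 (8.9% of all genes) and with RLE scaling (10.8%), and 4 with library totals only (12.4%). Leaving out 1 replicate gave 1 to 6 raised and 1 to 8 lowered, beside 7.09% to 15.6% and 3.92% to 14.3% of all genes. The cause of these changes was not tested.

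Samples sharing a replicate number did not deviate together (correlations 0.0302, 0.0114 and 0.0113), so the number is not taken as a pairing. RTEL1 and SFR1, at the lowest counts, had the widest intervals.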
